A study of Mus musculus with 6 samples.

Results

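The genes described are 58 named members of developmental transcription factor families and of the Kruppel-like family. They were chosen by gene symbol alone, from the names Hox, Sox, Fox, Tbx, Gata, Pax, Klf, Lhx, Nkx, Mef2, Tcf, Twist, Snai, Cebp, Msx, Dlx, Pitx, Meis and Pbx and the family name of Six3 without a cut on measured values, although earlier results of these data were known. Together 86 of the 8734 probes carried such a symbol as their only one, and all 58 symbols had enough values to be tested, out of 6807 rows in all. A row is 1 gene symbol, with its probes averaged on each array, or 1 probe without a single symbol. The choice by name also took in Twistnb, a subunit gene of RNA polymerase I that lies beside Twist1 and is no transcription factor of this kind. The Tcf name joins unrelated proteins, and no Pax, Lhx, Nkx or Meis gene was among the 58.

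The study asked how lasting activity of the beta2-adrenergic receptor acts on gene expression, by setting airway smooth muscle cells of receptor-overexpressing transgenic mice (2AR-OE in the labels) against those of nontransgenic (NTG) mice. Both kinds of culture were grown from pieces of trachea, those of 1 animal in a dish, with 20% fetal calf serum, and RNA was taken at passages 8 to 10. Per the labels over 90% of such cells stained for smooth muscle actin. The sources used here give neither the promoter that drives the receptor nor the number, strain and age of the animals. Each of the 6 arrays set transgenic against nontransgenic RNA directly: the transgenic sample was labelled with Cy5 in 4 cases (1A, 1B, 2A, 2B) and with Cy3 in the other 2 (1C, 2C). The number in an array's name is called its set, 1 or 2. Whether the arrays within a set came from separate cultures is not said, and the p-values cover only array-to-array spread, part or all of which may be technical.

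The deposited values are log2 ratios without spot intensities, so they carry no expression levels, and the precision is limited by the number of arrays. All ratios are taken as transgenic over nontransgenic, which is likely but not stated: channel 1 holds the transgenic RNA on the 4 arrays that carry it in Cy5, while the titles name the Cy3 sample first. If the ratio runs the other way, every sign below turns. The columns of 1C and 2C are taken as already turned to the same direction. The difference of set 2 minus set 1, in which a constant dye bias cancels, was compared between the 2 orientations. It correlated with r = 0.121 across all 6756 rows with a value on every array. Across the 6316 rows within 4-fold on every array r was 0.178. Both values are taken across rows, which are not independent replicates. No pair of arrays correlated below 0.009. With the signs of 1C and 2C reversed instead, 0 of the 58 genes and 1 of 6807 rows passed in limma, with 11 and 1242 at an unadjusted p under 0.05. Reversing these signs only exchanges the transgenic term of the fit with its term for the dye. The counts are therefore those of the dye term, and they cannot show whether the columns of 1C and 2C were turned. In a fit of the 4 Cy5 arrays alone, which uses neither column, Klf6, Foxn3, Hoxa5 and Tcf19 passed at adjusted p from 0.0114 to 0.0264, but a constant dye bias is then part of the ratio. Array 1C scattered most, with an SD of 1.04 over its probes against 0.467 to 0.608 on the others, and 22 of the 58 genes had their largest absolute ratio there.

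Transcription factors of these families bind DNA through a homeodomain, a forkhead, a T-box, zinc fingers or related folds, and set the identity and position of cells in the embryo. Many stay active in adult mesenchyme: cultured smooth muscle cells and fibroblasts keep a Hox code of the body region they came from. Kruppel-like factors bind GC-rich and CACCC sequences and follow growth, stress and hormone signals, while MEF2 factors act with serum response factor on contractile genes. The receptor raises cyclic AMP, whose kinase acts on the CREB factors at the cyclic AMP response element.

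Klf6, Foxn3, Hoxa5 and Tcf19 were higher in transgenic cells, by 1.26 to 1.80-fold, and none of the 58 genes was lower past the threshold. With the set as a random block the calls of Hoxa5 (adjusted p = 0.0551) and Tcf19 (0.0918) were lost. In RNA of whole cultures, more cells of a type and more RNA per cell cannot be told apart. These 4 of 58 genes (6.9%) stood against 484 of 6807 rows (7.11%) with a Benjamini-Hochberg adjusted p under 0.05 in limma, so the share among the factors is near that of the table as a whole. In the direction of higher ratios it was 4 of 58, against 4.03% of all rows, and in that of lower ratios 0 of 58, against 3.09%. At an unadjusted p under 0.05 there were 8 genes higher and 7 lower, 15 in all (25.9%), against 27.7% of all rows. The fitted log2 ratios of the 58 genes ran from -0.83 to 0.84 with a median of -0.014, against a median of 0.002 over all rows. Their median absolute log2 ratio was 0.168, against 0.173 over all rows, and 0 of the 58 lay beyond 2-fold, against 2.26% of all rows.

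**Figure D1:**
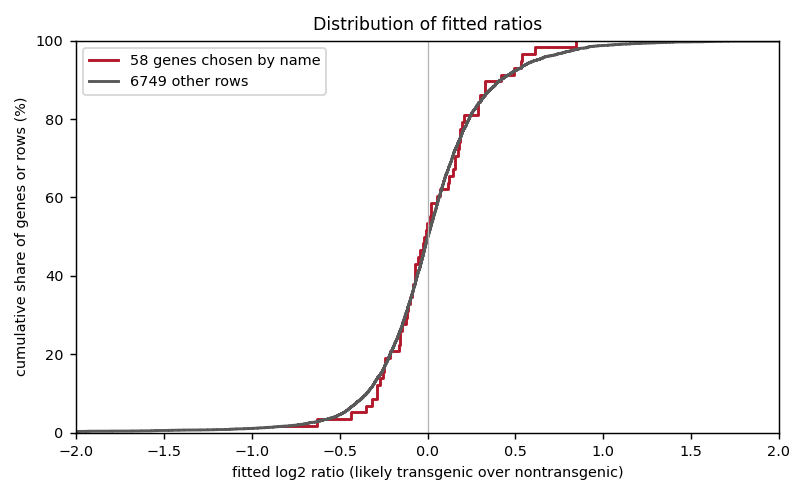
Cumulative share (vertical axis, percent) of the 58 genes chosen by name and of the 6749 other rows at or below each fitted log2 ratio (horizontal axis, likely transgenic over nontransgenic; 23 rows lie outside the axis). The curves lie close together, with medians of -0.014 for the 58 genes and 0.002 over all rows.

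The promoters of the 4 genes that passed are shown because these genes changed in the same direction. Each line gives the 250 bases upstream of the start in RefSeq's promoter table, 5′ to 3′, with capitals for TGACG, the core of the cyclic AMP response element, and for CCAAT, the CCAAT box, on either strand.

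Klf6 (GRCm38.p6, chr13:5861239-5861488, plus strand): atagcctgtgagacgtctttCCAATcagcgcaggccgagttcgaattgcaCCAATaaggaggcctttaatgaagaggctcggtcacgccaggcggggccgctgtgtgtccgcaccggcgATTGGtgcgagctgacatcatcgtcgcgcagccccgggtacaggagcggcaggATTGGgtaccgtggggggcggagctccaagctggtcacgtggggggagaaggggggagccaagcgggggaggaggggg

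Foxn3 (GRCm38.p6, chr12:99450075-99450324, minus strand): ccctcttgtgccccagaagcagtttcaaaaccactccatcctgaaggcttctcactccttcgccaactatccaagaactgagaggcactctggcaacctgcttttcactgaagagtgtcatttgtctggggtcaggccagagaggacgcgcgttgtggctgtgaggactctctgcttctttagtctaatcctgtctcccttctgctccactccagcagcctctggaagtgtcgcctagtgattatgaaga

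Hoxa5 (GRCm38.p6, chr6:52204588-52204837, minus strand): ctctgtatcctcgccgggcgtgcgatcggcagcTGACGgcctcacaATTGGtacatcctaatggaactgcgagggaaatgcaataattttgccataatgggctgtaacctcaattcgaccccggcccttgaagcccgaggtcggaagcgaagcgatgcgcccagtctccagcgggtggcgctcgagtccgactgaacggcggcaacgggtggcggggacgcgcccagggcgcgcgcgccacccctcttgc

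Tcf19 (GRCm38.p6, chr17:35516825-35517074, minus strand): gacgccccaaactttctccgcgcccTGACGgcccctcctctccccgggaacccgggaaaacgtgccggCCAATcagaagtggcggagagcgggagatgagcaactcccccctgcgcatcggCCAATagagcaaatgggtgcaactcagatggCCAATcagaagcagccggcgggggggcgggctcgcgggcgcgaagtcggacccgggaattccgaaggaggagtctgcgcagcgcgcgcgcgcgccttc

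The full element TGACGTCA was found in none of the 4 windows, nor in any of the 48 windows that the table holds for 41 of the 58 genes; it occurs in 1.55% of all 32851 windows. The core TGACG, whose letters are part of the full one, occurred once each in the Hoxa5 and Tcf19 windows; 22.9% of the 48 windows and 17.8% of all windows hold it. CCAAT occurred 4 times in the Klf6 window, 3 times in that of Tcf19 and once in that of Hoxa5. It is found in 54.2% of the 48 windows and 33.8% of all windows. CACCC, the box that Kruppel-like factors bind, occurred 3 times for Hoxa5 and once for Tcf19, and TATAAA in none of the 4; all windows hold these in 52.0% and 12.4%. The GC content was 64.8% for Klf6, 52.4% for Foxn3, 63.6% for Hoxa5 and 68.0% for Tcf19, against a median of 52.4% over all windows. A match describes these letters only, and absence says only that they are not in this window.

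Kruppel-like factors were led by Klf6, a widely expressed zinc finger factor that is induced early after injury. Its log2 ratios were 1.46 and 1.13 on 1A and 1B, 0.75 and 0.76 on 2A and 2B, 0.87 on 1C and 0.46 on 2C. All 6 were above 0, and the ratios of set 2 did not overlap those of set 1, which were higher. The fit gave 0.84 ± 0.128 (SE, n = 6 arrays; 1.80-fold, adjusted p = 0.0183, limma), on 1 probe. Without array 1B the adjusted p was 0.0593 and without 1C 0.0890, with estimates of 0.83 and 0.74.

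Klf9, a factor induced by glucocorticoid and thyroid hormone, was also above 0 on all 6 arrays, at 0.64, 0.30, 0.35, 0.37, 0.19 and 0.17 on 1A, 1B, 2A, 2B, 1C and 2C. It did not pass (0.30 ± 0.073, adjusted p = 0.0673). Its 3 probes gave 0.30, 0.26 and 0.34, and the first of these, tested alone, had an adjusted p of 0.04995. Of the 9 Kruppel-like genes, 6 had a positive estimate, with a family median of 0.158 and 1 of 9 past the threshold.

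Klf15, a metabolic regulator of muscle and liver, owed its estimate of 0.42 ± 0.157 (adjusted p = 0.156; 0.13 without 1C) to array 1C: the ratio was 1.28 there and -0.03 to 0.22 on the other 5 arrays. The 1C value came from 1 of its 2 probes, at 2.68, while the other probe read -0.13 on that array. Klf3, a repressor, showed the same picture with 1.24 on 1C and -0.46 to 0.00 elsewhere (0.20 ± 0.173, adjusted p = 0.479). On 1C Klf3 is the mean of 2 probes, 1 of which had values on 2A and 1C only.

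Klf5, which promotes growth of smooth muscle cells, was at -0.92 and -1.44 on 1A and 1B but at -0.22, -0.10, 0.46 and -0.11 on 2A, 2B, 1C and 2C. Its estimate was -0.25 ± 0.212 (adjusted p = 0.472), and its 2 probes differed widely on array 1B, at -0.33 and -2.55. Klf7, known from neurons, had -0.52, -0.31 and -0.62 on the set 1 arrays and 0.13, 0.24 and -0.12 on those of set 2. Klf10, an early gene of the TGF-beta response, had an estimate of -0.02 ± 0.078. Klf11, its close relative, was at 0.16 ± 0.082 and the erythroid factor Klf1 at 0.12 ± 0.133; none of these passed.

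**Figure D2:**
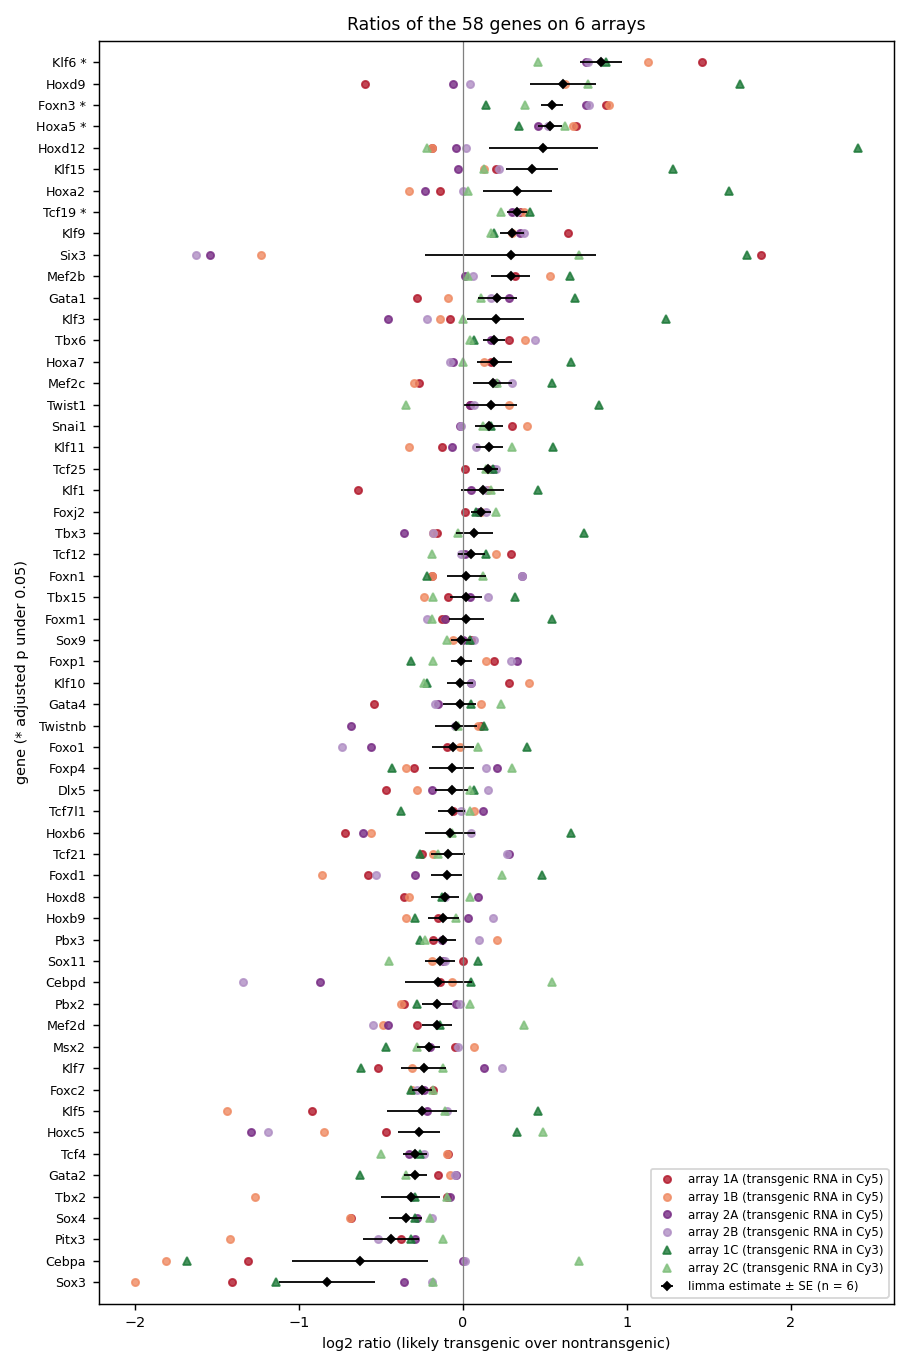
Log2 ratio (horizontal axis, likely transgenic over nontransgenic) of each of the 58 genes (vertical axis, ordered by the fitted value) on each of the 6 arrays, with circles for transgenic RNA in Cy5, triangles for transgenic RNA in Cy3, and diamonds with bars for the limma estimate ± SE. Klf6, Foxn3, Hoxa5 and Tcf19, marked with an asterisk, have all 6 points above 0, while Hoxd12, Hoxa2 and Klf3 have array 1C far to the right of the other 5.

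Among the 9 Hox genes, which give cells their position along the body axis, Hoxa5 alone passed. Hoxa5 is needed for the normal formation of the trachea and lung. Its log2 ratios were 0.69, 0.67, 0.46, 0.52, 0.34 and 0.62 on 1A, 1B, 2A, 2B, 1C and 2C, all above 0 and with no gap between the sets or the dye orientations. The estimate was 0.53 ± 0.075 (1.45-fold, adjusted p = 0.01495, limma), on 1 probe; with the set as a random block it did not pass (adjusted p = 0.0551). Without 1B or without 2B the adjusted p was 0.0524 and 0.0546, with estimates of 0.519 and 0.545.

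The other genes of the same cluster on chromosome 6 did not pass. Hoxa2, a patterning gene of the hindbrain and pharyngeal arches, was at -0.14, -0.33, -0.23, 0.00 and 0.03 on 1A, 1B, 2A, 2B and 2C and at 1.62 on 1C. Its estimate of 0.33 ± 0.210 (adjusted p = 0.348) became -0.07 without that array. Without 2C, which leaves 1C alone in its orientation, Hoxa2 (0.72, adjusted p = 0.00684), Hoxd12 (1.15, 0.00192), Hoxd9 (0.84, 0.04999) and Klf15 (0.70, 0.00587) passed. So did Hoxa7, Klf3, Twist1, Foxc2 and Gata2 beside the 4 genes called on 6 arrays, 13 of 58 in all and 1689 of all rows. Hoxa7 had 0.66 on 1C and -0.08 to 0.17 on the rest (0.19 ± 0.107, adjusted p = 0.297), and its 2 probes gave 0.31 and 0.06.

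The Hoxd genes gave no common direction. Hoxd12, a limb patterning gene, was at 2.41 on 1C and -0.22 to 0.02 on the other 5 arrays, so that its estimate of 0.49 ± 0.333 (adjusted p = 0.367) became -0.16 without 1C. Hoxd9 spread from -0.60 on 1A to 1.69 on 1C, with 0.62, -0.06, 0.04 and 0.76 on 1B, 2A, 2B and 2C, and did not pass (0.61 ± 0.200, adjusted p = 0.122; 0.38 without 1C). Hoxd8 was at -0.11 ± 0.088.

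Hoxc5 divided the arrays by dye. It was at -0.47, -0.85, -1.29 and -1.19 on 1A, 1B, 2A and 2B, where Cy5 marks transgenic RNA, and at 0.33 and 0.49 on 1C and 2C, where Cy3 does. Both of its probes were below -0.4 on all 4 of the first kind. On 1C they differed, at -0.07 and 0.74, and on 2C they read 0.33 and 0.66. Its transgenic estimate was -0.27 ± 0.128 (adjusted p = 0.231), and its dye term, Cy5 over Cy3, was -0.68 ± 0.128 (unadjusted p = 0.00172, adjusted p = 0.171). Hoxb6 and Hoxb9 were at -0.08 ± 0.151 and -0.12 ± 0.094. The Hox estimates as a group had a median of 0.187, with 5 positive and 4 negative.

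Of the 9 forkhead genes Foxn3 passed, a repressor first known as a checkpoint suppressor. Its log2 ratios were 0.87, 0.89, 0.75 and 0.77 on 1A, 1B, 2A and 2B, and 0.14 and 0.38 on 1C and 2C. All were above 0, and the ratios with transgenic RNA in Cy5 did not overlap those with it in Cy3 (means of 0.82 and 0.26). The estimate was 0.54 ± 0.067 (1.45-fold, adjusted p = 0.0108), with a dye term of 0.28 ± 0.067 (adjusted p = 0.182). It had 1 probe with values, and it passed without each of the 6 arrays in turn, at adjusted p from 0.0111 to 0.0467.

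Foxc2, a factor of mesenchyme and vessels, was below 0 on all 6 arrays within a narrow range, from -0.32 to -0.18, and did not pass (-0.25 ± 0.061, adjusted p = 0.0667). Foxd1, a marker of stromal progenitors, split by dye as Hoxc5 did: -0.58, -0.86, -0.29 and -0.53 with transgenic RNA in Cy5, and 0.48 and 0.24 with it in Cy3. Its estimate was -0.10 ± 0.096. Foxp1, one of the forkhead factors of lung development, split the other way, at 0.14 to 0.33 in the first orientation and -0.32 and -0.18 in the second.

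Foxo1, the target of insulin and AKT signalling, was at -0.10, -0.02, -0.56, -0.74, 0.39 and 0.09 on 1A, 1B, 2A, 2B, 1C and 2C (-0.06 ± 0.127), and its probes gave 0.42 and -0.53. Foxm1, which drives mitotic genes, was at -0.22 to -0.11 on 5 arrays and 0.54 on 1C, where its 2 probes read 1.59 and -0.51 (0.02 ± 0.107). Foxj2, Foxn1 and Foxp4 were at 0.11, 0.02 and -0.07. The median of the 9 forkhead genes was -0.005.

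Tcf19, a gene expressed at the start of S phase, passed among the 6 Tcf-named genes. Its log2 ratios were 0.35, 0.37, 0.30, 0.33, 0.41 and 0.23 on 1A, 1B, 2A, 2B, 1C and 2C. All were above 0, in the narrowest range of the 4 genes that passed. The estimate was 0.33 ± 0.061 (1.26-fold, adjusted p = 0.0323). Leaving out 1A, 1B, 2A, 2B or 1C gave adjusted p from 0.0832 to 0.107 with estimates of 0.28 to 0.34, while without 2C it passed (0.37, adjusted p = 0.0177). On all 6 arrays it did not pass with the set as a random block (adjusted p = 0.0918) or with array weights (0.1003).

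Tcf4, an E protein that pairs with tissue-specific helix-loop-helix factors, was below 0 on all 6 arrays, at -0.09, -0.10, -0.33, -0.24, -0.26 and -0.50 on 1A, 1B, 2A, 2B, 1C and 2C (-0.29 ± 0.073, adjusted p = 0.0731). Its relative Tcf12 was at 0.05 ± 0.083. Tcf21, a helix-loop-helix factor of lung and heart mesenchyme, was at 0.28 and 0.27 on 2A and 2B and at -0.26 to -0.15 on the other 4 arrays (-0.09 ± 0.104). Tcf7l1, an effector of Wnt signalling, and Tcf25 were at -0.07 and 0.15.

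All 4 Sox genes had negative estimates, and none passed. Sox3, a neural progenitor factor, had the lowest of the 58, with -1.41, -2.0 and -1.14 on 1A, 1B and 1C against -0.36, -0.19 and -0.18 on 2A, 2B and 2C. All 6 ratios were below 0 but the sets did not overlap, and the estimate was -0.83 ± 0.294 (1.77-fold lower, adjusted p = 0.141). Sox4, a factor of progenitor cells, was at -0.68, -0.69, -0.28, -0.19, -0.29 and -0.20 on 1A, 1B, 2A, 2B, 1C and 2C (-0.35 ± 0.099, adjusted p = 0.0893). Its 3 probes gave -0.69, -0.08 and -0.28. Sox11 was at -0.14 ± 0.091. Sox9, the master factor of cartilage, stayed between -0.10 and 0.07 on all 6 arrays, with an estimate of -0.01 ± 0.061.

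Of the 3 GATA genes, Gata2, a factor of blood stem cells and endothelium, was below 0 on all 6 arrays. It was at -0.15, -0.08, -0.04 and -0.05 on 1A, 1B, 2A and 2B and at -0.63 and -0.35 on 1C and 2C, with no overlap between the dye orientations. Its estimate was -0.29 ± 0.068 (adjusted p = 0.0623), with -0.27 and -0.31 at its probes; without 2C it passed (-0.36, adjusted p = 0.0217). The erythroid factor Gata1 was at -0.28, -0.09, 0.28, 0.17, 0.68 and 0.11 on 1A, 1B, 2A, 2B, 1C and 2C, with signs that differed between arrays. Gata1 (0.21 ± 0.119, adjusted p = 0.296; 0.07 without 1C and 0.35 without 2C) and the cardiac factor Gata4 (-0.02 ± 0.101) did not pass.

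The 3 MEF2 genes, factors of muscle differentiation, did not pass. Mef2b was above 0 on all 6 arrays, at 0.32, 0.53 and 0.65 on 1A, 1B and 1C and at 0.01, 0.06 and 0.03 on 2A, 2B and 2C (0.29 ± 0.121, adjusted p = 0.190; 0.13 without 1C and 0.44 without 2C). Mef2c was at 0.18 ± 0.118 and Mef2d at -0.16 ± 0.093. One of the 3 Mef2d probes read -0.53 to -1.25 with transgenic RNA in Cy5 and 0.33 and 0.50 with it in Cy3, a split that the other 2 probes did not show.

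The T-box genes Tbx2 and Tbx3, both of lung mesenchyme, were at -0.32 ± 0.182 and 0.07 ± 0.115. Tbx2 was below 0 on all 6 arrays but its estimate leaned on 1B, at -1.27 against -0.31 to -0.08 on the others (-0.18 without 1B). Tbx6, a gene of paraxial mesoderm, was above 0 on all 6 arrays, from 0.04 to 0.44 (0.19 ± 0.067, adjusted p = 0.142), and Tbx15 was at 0.02. Snai1 and Twist1, which drive the epithelial to mesenchymal transition, were at 0.16 ± 0.085 and 0.17 ± 0.161, and Twistnb at -0.04 ± 0.128.

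Cebpa, a factor of fat, liver and airway epithelial cells that restrains growth, had a large but unstable ratio. It was at -1.31, -1.81 and -1.68 on 1A, 1B and 1C, and at 0.00, 0.01 and 0.71 on 2A, 2B and 2C. The estimate was -0.63 ± 0.414 (adjusted p = 0.357), and it was -0.03 without 1C and -1.23 without 2C. Cebpd, an acute phase factor, was at -0.14, -0.07, -0.87 and -1.34 with transgenic RNA in Cy5 and 0.05 and 0.54 with it in Cy3 (-0.15 ± 0.204).

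Homeobox genes outside the Hox clusters gave 5 negative estimates of 6, and none passed. Pitx3, a lens and midbrain factor, was below 0 on all 6 arrays, with -1.42 on 1B and -0.52 to -0.12 on the others (-0.44 ± 0.170, adjusted p = 0.166). Msx2, a limb and skull factor, was at -0.21 ± 0.069 (adjusted p = 0.119). The Hox cofactors Pbx2 and Pbx3 were at -0.16 ± 0.092 and -0.12 ± 0.079, and the bone factor Dlx5 at -0.07 ± 0.098. Six3, an eye and forebrain factor, read 1.82, 1.73 and 0.71 on 1A, 1C and 2C and -1.23, -1.54 and -1.63 on 1B, 2A and 2B, which gave 0.29 ± 0.522.

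Sign agreement across arrays was counted over all 58 genes, each of which had 6 values. The same sign was seen on all 6 arrays for 16 genes (27.6%), against 19.7% of the 6756 rows with 6 values. The 9 positive ones were Klf6, Foxn3, Hoxa5, Tcf19, Klf9, Mef2b, Tbx6, Tcf25 and Foxj2. The 7 negative ones were Sox3, Pitx3, Sox4, Tbx2, Tcf4, Gata2 and Foxc2. Where a gene had at least 2 fitted probes, 12 of 20 genes had all of them on the same side. The share over all rows with at least 2 probes was not counted, so this number has no comparison.

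Sign by dye was the next pattern. One sign on all 4 Cy5 arrays of transgenic RNA and the other on both with it in Cy3 was seen for 6 genes (10.3%), against 10.4% of rows: Hoxc5, Foxd1, Foxo1, Cebpd, Foxp1 and Klf10. For Foxo1 this holds for the mean of its 2 probes with values and for neither alone. They read -1.38 and 2.17 on 1C. For Hoxc5 the pattern holds for the mean and for 1 of its 2 probes, while the other read -0.07 on 1C. The dye term had an unadjusted p under 0.05 for 11 of the 58 genes (19.0%), against 18.2% of all rows, and 0 of the 58 passed after adjustment in limma.

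**Figure D3:**
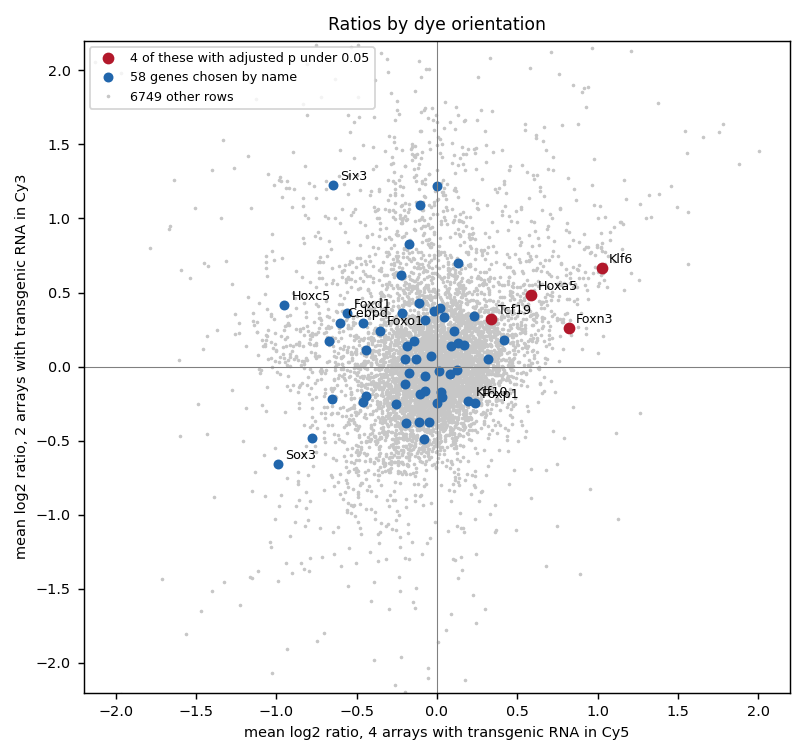
Mean log2 ratio on the 4 arrays that carry transgenic RNA in Cy5 (horizontal axis) against the mean on the 2 arrays with it in Cy3 (vertical axis) for the 58 genes and the 6749 other rows (73 rows lie outside the axes). Klf6, Hoxa5, Foxn3 and Tcf19 are positive on both axes, while Hoxc5 and Foxd1 are negative on the horizontal and positive on the vertical axis.

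The sets differed for several factors, as the values of Sox3 and Cebpa showed. The difference of set 2 minus set 1 was 1.28 ± 0.208 for Sox3 (adjusted p = 0.0724, limma) and 1.84 ± 0.237 for Cebpa (adjusted p = 0.0724). Foxp4 (0.58 ± 0.093), Klf7 (0.57 ± 0.101) and Foxn1 (0.48 ± 0.087) followed at adjusted p from 0.0724 to 0.0747, and none of the 58 genes passed. At an unadjusted p under 0.05 there were 15 genes (25.9%), against 23.7% of all rows, of which 0 passed after adjustment. One sign on all arrays of set 2 and the other on all of set 1 was seen for 4 genes (6.9%), against 7.12% of rows. Of the 4 genes higher in transgenic cells, Klf6 had means of 0.66 in set 2 and 1.15 in set 1 (-0.49 ± 0.121, adjusted p = 0.105), and the means of Foxn3, Hoxa5 and Tcf19 differed by at most 0.09.

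**Figure D4:**
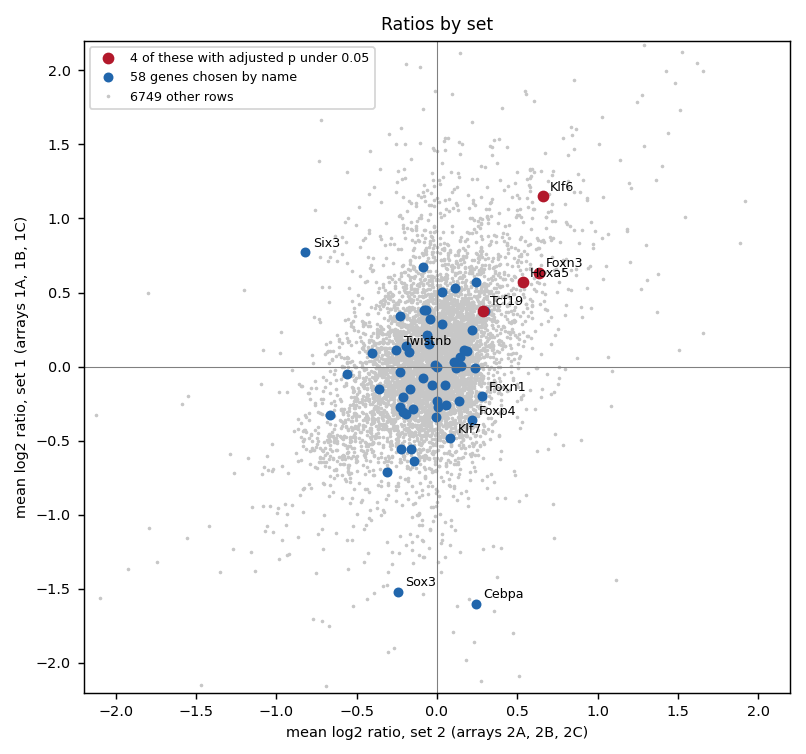
Mean log2 ratio in set 2 (horizontal axis) against set 1 (vertical axis), 3 arrays each, for the 58 genes and the 6749 other rows (39 rows lie outside the axes). Foxn3, Hoxa5 and Tcf19 lie near equal values in both sets, while Sox3 and Cebpa are far below 0 in set 1 and near 0 or above in set 2.

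The number of calls differed with how the sets entered the model, while the 4 ratios stayed the same in these fits. When the set was a random replicate block, with a correlation of 0.295 estimated from the data, 2 of the 58 genes passed, Klf6 (adjusted p = 0.0415) and Foxn3 (0.0398), with Hoxa5 at 0.0551 and Tcf19 at 0.0918, and 197 rows passed in all. With the set as a fixed replicate block 13 of 58 genes passed, 6 higher and 7 lower, out of 1168 rows; Sox3 (adjusted p = 0.0163), Sox4 (0.0262), Gata2 (0.0256), Tcf4 (0.0193), Cebpa (0.0373), Foxc2 and Klf7 were the 7 lower. With each set averaged to 1 value, 0 genes and 0 rows passed in limma, with 5 genes and 728 rows at an unadjusted p under 0.05. That fit has 2 values a row and could hardly pass any: Thy1 and Fhl1, with ratios of 2.73 and 1.6, reached an adjusted p of 0.140.

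**Figure D5:**
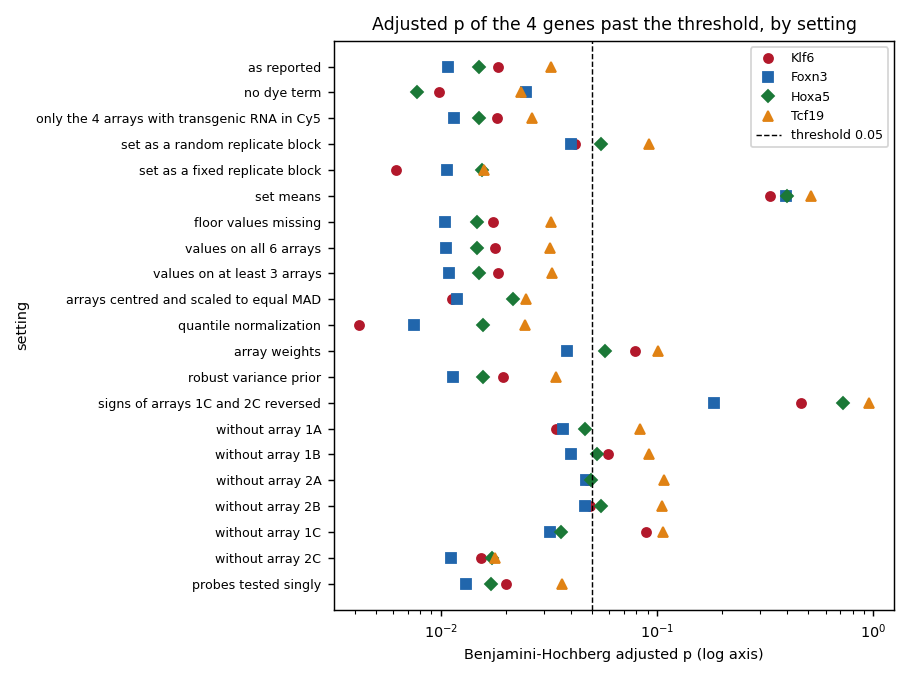
Benjamini-Hochberg adjusted p (horizontal log axis) of Klf6, Foxn3, Hoxa5 and Tcf19 in the fit as reported and under each alternative (vertical axis), with a dashed line at 0.05. Foxn3 is right of the line with set means and with the signs of arrays 1C and 2C reversed, and Tcf19 is right of it in most fits that leave out 1 array. In the fit with reversed signs the p is that of the dye term.

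Partners and cofactors of these factors held 3 called genes among 14 measured of 33 listed (21.4%, against 7.11% of all rows). This list and those below were chosen with earlier results of these data known. Their shares are therefore no test of enrichment. Hdac5, a class II histone deacetylase that binds MEF2 factors, rose (0.61 ± 0.064, 1.53-fold, adjusted p = 0.00765), with 0.49 to 0.80 on the 6 arrays. Tgif1, a homeodomain repressor of TGF-beta signalling, rose (0.48 ± 0.074, adjusted p = 0.0194). Eya2, a coactivator of Six3 and its relatives, fell (-0.49 ± 0.086, adjusted p = 0.0280). The median of the 14 was -0.142, and at an unadjusted p under 0.05 there were 3 higher and 6 lower (64.3%, against 27.7% of all rows). With the set as a random block Eya2 did not pass (adjusted p = 0.107).

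Other mesenchymal factors and partners of serum response factor held 4 called genes among 21 measured of 43 (19.0%, against 7.11% of all rows). Fhl1, a LIM domain protein of muscle, rose (1.6 ± 0.082), and Wwtr1, the Hippo pathway coactivator TAZ (-0.91 ± 0.137), Ets1 (-0.67 ± 0.107) and Csrp2, a LIM protein of smooth muscle (-0.51 ± 0.090), fell. Wwtr1 was below 0 on all 6 arrays, from -1.28 to -0.54. Of 5 contractile genes measured of 15 listed, Vcl (1.15 ± 0.144) and Cnn1 (0.59 ± 0.105) rose, again beside 7.11% of all rows. The other 3, Cald1 (-0.12), Smtn (-0.05) and Tpm1 (-0.16), had negative estimates and did not pass. The median of the 5 was -0.053. With the set as a random block Csrp2 (adjusted p = 0.0942) and Cnn1 (0.0602) did not pass.

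None passed in limma among 10 immediate early and cyclic AMP responsive factors, with 4 positive and 6 negative estimates and a median of -0.021. Of these, 2 had an unadjusted p under 0.05, both higher, and Ier2 had the lowest (0.25, adjusted p = 0.148). The other at that level was Crem (0.60 ± 0.245, adjusted p = 0.180), with -0.81 on 1A and 0.40 to 1.03 on the rest. None of 9 Notch, Hes, Hey and Id genes passed either, with 2 at that level, both lower; Hey1, a Notch target, came nearest (-0.30 ± 0.069, adjusted p = 0.0571). The same held for 13 Polycomb and Trithorax genes, which keep Hox genes off or on, with 2 at that level and Phc2 nearest (-0.47 ± 0.107, adjusted p = 0.0563). The shares over all rows were 7.11% called and 27.7% at that level, and lists this short can hold no called gene at that rate.

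Markers of the cell types that the cultures could hold were compared as ratios only, since no level shows whether a marker is present. The counts stand beside 7.11% of all rows called and 27.7% at an unadjusted p under 0.05. Thy1, Ly6c1 and Mfap5 rose among 6 measured fibroblast markers, whose median was 1.24, with medians of 0.85 to 1.58 on single arrays. Cnn1 rose among 3 smooth muscle markers (median -0.053). Cdh1 rose among 4 epithelial markers (median 0.130), Mb among 3 of skeletal and cardiac muscle (median 0.071). Col11a1 fell among 5 cartilage markers (median -0.246), and L1cam and Uchl1 fell among 5 neural and Schwann cell markers (median -0.297). None of 6 endothelial (median -0.445, 2 at an unadjusted p under 0.05) and 5 leukocyte markers (median 0.011, 1 at that level) passed in limma. The part of the fibroblast markers in the ratios of Klf6, Foxn3, Hoxa5 and Tcf19 was not tested. With the set as a random block Cnn1 (adjusted p = 0.0602), Cdh1 (0.101), Mb (0.121), L1cam (0.0679) and Uchl1 (0.109) did not pass.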

How the data were processed

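The authors deposited 1 table of log2 ratios, 8734 probes by 6 two-colour arrays. Both RNAs were hybridised together as Cy3 and Cy5 cDNA, per the labels' protocols; the sources used here do not give scanner, background correction, normalization or ratio direction. Array medians of the deposited log2 values lie within 0.0012 of 0, so the arrays were already centred. Probe names come from the platform annotation; all 86 probes of the 58 genes matched the GRCm38.p6 gene table by Entrez ID, and 0 symbols changed.

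Probes of 1 symbol were averaged per array, rows measured on 4 or more arrays, including both orientations, were kept (6807), and limma 3.58.1 (R 4.3.3; lmFit, eBayes) fitted a transgenic and a dye term, with Benjamini-Hochberg adjustment over all rows and a threshold of 0.05. A further term gave set 2 minus set 1. The fit was tested on simulated data with normally distributed noise. It called 36% of rows given a log2 change of 0.5 in size, 88% of those given 1 and 0.121% of those given 0. A gene that did not pass may therefore still differ by such an amount. Arrays of the same dye orientation correlated with r = 0.561 (1A, 1B), 0.697 (2A, 2B) and 0.313 (1C, 2C). The Cy5 arrays of different sets correlated with r from 0.357 to 0.424. Pairs of different orientation were lowest, with r from 0.009 (2A, 1C) to 0.179 (1B, 1C), also within a set. The labels do not say what a set is, so the set was a block only in alternatives. The alternatives changed the dye term, sets, floor values, missing values, scaling, weights, probes and signs, and left out each array. Full values are given for called genes and for the 8 others on each side with the largest estimates. Figures used matplotlib 3.10.9. Genes and lists were chosen with earlier results of these data known.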

Additional observations from a re-analysis of the deposited data

Results flagged for a closer look

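Over the 4 arrays with transgenic RNA in Cy5, 1 array stood far from the other 3 (Dixon's test) for 4 of the 58 genes, where chance flags about 1 group in 20. The share over all rows was not counted, so the 4 genes have no comparison with the whole table. Six3 read 1.82 on array 1A against -1.63 to -1.23 on the others. Klf1 read -0.64 on 1A against 0.05 to 0.15, but its 2 probes read -1.47 and 0.20 on 1A. Tbx3 read -0.36 on 2A against -0.18 to -0.16, and Twist1 read 0.28 on 1B against 0.04 to 0.07. The 2 Twist1 probes read 0.49 and 0.08 on 1B.

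For 4 genes every array of set 2 lay on 1 side of 0 and every array of set 1 on the other. The difference of set 2 minus set 1 was 1.84 for Cebpa, 0.58 for Foxp4, 0.48 for Foxn1 and -0.36 for Twistnb, and none passed in limma, with adjusted p of 0.0724, 0.0724, 0.0747 and 0.337. For Twistnb the sign in set 2 rests on ratios of -0.05 and -0.03 on 2B and 2C beside -0.68 on 2A.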

How the results depend on the processing

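Of 58 genes, 4 passed as reported, out of 484 rows. The same 4 were called without a dye term, with floor values missing, with values on all 6 or at least 3 arrays and with a robust variance prior; centring and scaling added Gata2, quantile normalization Gata2 and Klf9, and probes tested singly Klf9. On the 4 Cy5 arrays alone 9 genes and 1049 rows passed, with array weights 1 (Foxn3) and 159, with a random replicate block for the set 2 and 197, with the set as a fixed replicate block 13 and 1168, with set means, a fit of 2 values a row that could hardly pass any, 0 and 0, and with the signs of 1C and 2C reversed 0 and 1. With 1 array left out, 1 to 13 genes and 169 to 1689 rows passed. The highest counts came without 2C, which leaves the widely scattered 1C as the only array of its orientation, and the lowest count of genes came without 1B (Foxn3 alone). With the signs of 1C and 2C reversed the fit returns the dye term in place of the transgenic ratio (0.008 for Tcf19). It is therefore no check on that ratio. Klf6, Foxn3, Hoxa5 and Tcf19 kept a positive ratio under every other alternative run, down to 0.284 for Tcf19 without 1C. On the 4 Cy5 arrays Hoxd12 (-0.104), Hoxa2 (-0.177) and Six3 (-0.646) turned negative, as did Six3 without a dye term (-0.023). With 1 array left out the estimates ran from -0.163 to 1.15 for Hoxd12, from -0.072 to 0.723 for Hoxa2 and from -0.122 to 0.544 for Six3. The dye term returned with the signs of 1C and 2C reversed differed in sign from the transgenic ratio for some named genes. It was negative for Hoxd9 (-0.61), Hoxd12 (-0.598), Klf15 (-0.285), Hoxa2 (-0.502), Six3 (-0.935), Mef2b (-0.053), Gata1 (-0.188) and Thy1 (-0.098). It was positive for Gata2 (0.204), Tcf4 (0.096), Col11a1 (0.269), Eya2 (0.151), Csrp2 (0.19), Ets1 (0.15), Wwtr1 (0.031), Cd14 (0.006) and Hey1 (0.009). The cause of the changes between alternatives was not tested. Spot intensities were not used here, so signal over background is unknown.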
